A study of Mus musculus with 165 samples.

Results

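The 8 genes described here carry copper and zinc into, through and out of the cell, or bind and sense these metals: *Slc31a1*, *Atp7a*, *Atp7b*, *Mt1*, *Mt2*, *Mtf1*, *Slc30a1* and *Slc39a10*. They were taken by symbol from a table of 36255 genes, in which each symbol occurred once, and all 8 had at least 5 normalized counts in every library. The group was chosen by measured values, since *Atp7b* had one of the largest rises of the series between 8h and 12h in IL3, so that step is given below as a description, with no test.

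The libraries are bulk polyA RNA-Seq of PUER cells, a single line of myeloid progenitors. The cells have no *Spi1* of their own, the gene of the transcription factor PU.1, and express instead a fusion of PU.1 with an estrogen receptor domain, which OHT (4-hydroxytamoxifen) activates, and this holds for all groups. Undifferentiated cells were kept in IL3 at 5 ng/ml without OHT (3 libraries). In the IL3-OHT groups OHT was added at 200 nM in the same cytokine (81 libraries, 27 time points from 1h to 168h), which leads toward macrophages. In the GCSF groups IL3 was replaced by GCSF at 10 ng/ml for 48 h (GCSF 0h, 3 libraries, before OHT), and OHT was then added at 100 nM (GCSF-OHT, 78 libraries, the same 27 time points), which leads toward neutrophils. Cytokine and OHT concentration differ together between the conditions, and their parts cannot be told apart. Part of the medium was replaced with fresh OHT at 40h, 88h and 136h, and cells were detached with trypsin at time points after 24h. Each group had 3 libraries, except GCSF-OHT 96h, 112h and 152h with 2. The titles of the GCSF 0h libraries name OHT, while their treatment field places them before it.

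The libraries of a group are biological replicates per the study's methods, and p-values measure the spread between these samples. Each time point had a plate of its own, so the parts of time and of plate cannot be told apart. The p-values between time points hold no spread between plates. Values are normalized counts, reads per gene divided by a size factor of the library. Library totals on genes ran from 14600246 to 33147945 reads, and 3 reads, the smallest count told from 0 here, correspond to 1.96 to 5.51 normalized counts, a limit that covers counting error only. *Atp7b* had the fewest reads of any member in a library, 9. *Spi1* had 4482 to 13387 normalized counts, which can come from the fusion gene and do not show its activity. All 10 neutrophil lineage markers were detected in some library, their sum running from 297486 to 303880 in undifferentiated cells, from 404242 to 454161 at GCSF 0h and from 734208 to 781369 at GCSF-OHT 168h, against 256651 to 289430 at IL3-OHT 168h. The sum of 4 progenitor markers ran from 11223 to 12486 in undifferentiated cells, from 5843 to 6447 at GCSF 0h, from 2819 to 2952 at GCSF-OHT 168h and from 2804 to 3062 at IL3-OHT 168h. Of 8 monocyte and macrophage markers 7 were detected in some library, with a sum of 15305 to 34794, and *Csf1r* stayed at or below 56.3. Their sum ran from 23123 to 26221 in undifferentiated cells and from 20867 to 24279 at GCSF 0h. At 168h it ran from 19467 to 20214 in GCSF-OHT and from 25762 to 28683 in IL3-OHT. The sums of 3 T cell, 3 B cell and 4 erythroid markers reached 5.35, 19.5 and 65.3, with *Cd3e* and *Hbb-bs* below 3 in every library. That of 5 mast cell and basophil markers reached 326.0. Of 4 fibroblast and endothelial genes *Pecam1*, which myeloid cells also express, had 6061 to 16541, while *Col1a1*, *Cdh5* and *Col3a1* reached 72.7, 55.1 and 7.68. The part of these marker changes in the results was not tested, and in bulk RNA fewer cells of a type and less RNA per cell cannot be told apart. Differences were tested by limma on log2(normalized count + 1) over 17414 genes, and a gene was called at an adjusted p (Benjamini-Hochberg over all genes) under 0.05 with a log2 fold change beyond 0.58 in either direction. The authors left out IL3-OHT 96h and 144h, and these enter only where named. SE is the standard error of a log2 fold change.

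Copper enters cells through the importer SLC31A1 (CTR1). The P-type ATPases ATP7A and ATP7B load copper onto enzymes in the secretory pathway and expel its excess, and loss of their human counterparts causes Menkes and Wilson disease. Metallothioneins, small cysteine-rich proteins encoded by *Mt1* and *Mt2*, bind zinc and copper. The zinc-sensing transcription factor MTF-1, encoded by *Mtf1*, binds metal response elements, activates *Mt1*, *Mt2* and the zinc exporter gene *Slc30a1* (ZnT1), and is known to repress the zinc importer gene *Slc39a10* (ZIP10). Macrophages and neutrophils move both metals when they meet microbes.

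The promoters of the 3 classical MTF-1 targets are shown because these genes rose together within 1h of OHT in GCSF. The RefSeq windows of GRCm38.p6 run from 250 bases before to 50 bases after the annotated start, and a stretch before the start is printed in lower case, 5′ to 3′, with each core of the metal response element in capitals (TGCACNC or TGCGCNC, searched on both strands). *Mt1* is shown for chr8:94178839-94179078, *Mt2* for chr8:94172368-94172607 and *Slc30a1* for chr1:191906531-191906766, all on the plus strand.
Mt1: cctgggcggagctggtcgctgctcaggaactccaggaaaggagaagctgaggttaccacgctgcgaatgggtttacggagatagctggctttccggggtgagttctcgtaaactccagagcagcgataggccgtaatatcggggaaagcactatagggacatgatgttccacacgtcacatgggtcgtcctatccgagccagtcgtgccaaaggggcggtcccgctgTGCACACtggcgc
Mt2: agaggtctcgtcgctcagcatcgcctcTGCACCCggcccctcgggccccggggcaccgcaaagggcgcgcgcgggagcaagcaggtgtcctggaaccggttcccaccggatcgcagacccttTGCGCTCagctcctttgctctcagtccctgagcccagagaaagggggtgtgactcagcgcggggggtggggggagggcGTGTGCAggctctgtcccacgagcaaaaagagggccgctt
Slc30a1: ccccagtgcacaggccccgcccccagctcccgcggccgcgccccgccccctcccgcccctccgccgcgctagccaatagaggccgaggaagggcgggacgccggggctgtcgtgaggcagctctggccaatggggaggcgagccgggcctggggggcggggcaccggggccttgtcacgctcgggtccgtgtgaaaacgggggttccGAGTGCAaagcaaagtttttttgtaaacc

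The whole window held 4 cores at *Mt2*, 3 at *Mt1* and 2 at *Slc30a1*. Of the *Mt1* cores 1 lay before the start and 2 after it, 2 and 20 bases downstream of the annotated start. *Atp7a* held 2 cores, *Atp7b* 1, and the windows of *Slc31a1*, *Mtf1* and *Slc39a10* (which has a pair of RefSeq windows) none. Among 32851 promoter windows of the same length, 25.7% held at least 1 core, 7.11% at least 2, 1.97% at least 3 and 0.517% at least 4. The PU.1 core GAGGAAGT occurred once, at the far end of the *Slc31a1* window, and in 3.2% of all windows. These are matches of letters and not sites shown to be bound. In GENCODE M21 (GRCm38) *Atp7b* lies on chromosome 8 from 21992785 to 22060305 on the minus strand, *Atp7a* on chromosome X from 106027276 to 106124926, and *Mt2* and *Mt1* lie beside each other on chromosome 8, from 94172664 to 94173568 and from 94179082 to 94180327. Transcripts of *Mt1* and *Mt2*, and of *Atp7a* and *Atp7b*, shared 0 of their 31-base words, and 1.62% of those of *Slc39a10* occur in transcripts of other genes. The antisense gene *Gm45774* covers 73.5% of the exon bases of *Mt2*, *1700034H15Rik* 8.92% of those of *Slc30a1* and *1110065P20Rik* 8.09% of those of *Mtf1*. Counting by strand is not stated, so reads of such pairs cannot be told apart. By symbol, *Gm45774* and *1700034H15Rik* were not among the genes counted, while *1110065P20Rik* had 183.5 to 812.8 normalized counts.

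After the exchange of IL3 for GCSF, before any OHT, 6 of the 8 genes were lower than in undifferentiated cells. The study uses the same undifferentiated samples as the start of both courses. The GCSF cells were also washed at the exchange, so the parts of cytokine and handling cannot be told apart. *Slc31a1*, the importer, went from 2630.0, 2609 and 2680.1 normalized counts in undifferentiated cells to 892.7, 891.6 and 919.9 at GCSF 0h, and the groups did not overlap, a log2 fold change of -1.55 (SE 0.06, adjusted p = 5e-45). *Atp7a* went from 1130.5, 1058 and 1011.5 to 367.8, 343.5 and 298.2, a change of -1.67 (SE 0.11, adjusted p = 4.41e-29), and *Atp7b* from 146.5, 128.9 and 143.0 to 47.13, 47.81 and 37.28, a change of -1.65 (SE 0.24, adjusted p = 1.08e-09). The metallothionein gene *Mt2* fell furthest, from 1677, 1673 and 1709 to 339.2, 324.0 and 306.6, a change of -2.38 (SE 0.13, adjusted p = 2.88e-33). *Mt1* changed by -1.21 (SE 0.11, adjusted p = 2.06e-18) and *Slc30a1* by -0.99 (SE 0.11, adjusted p = 1.34e-14). The values of *Mtf1*, 1322 ± 23.39 (SD, n = 3) and 1252.5 ± 62.12 (SD, n = 3), and of *Slc39a10*, 158.1 ± 1.87 (SD, n = 3) and 144.0 ± 5.53 (SD, n = 3), differed by -0.08 and -0.13 on the log2 scale and were not called. In all, 6 of 8 members were called lower, where 20.7% of all genes tested were called lower and 13.0% higher. Of 43 further copper and zinc genes 36 could be tested, of which 4 rose, 9 fell and 23 were not called, with a median of 0.05 against -0.09 over all genes. The zinc importer gene *Slc39a14* changed by -1.94 (SE 0.10, adjusted p = 1.29e-34), while *Steap4*, which encodes a metalloreductase, and the zinc importer gene *Slc39a5* were called on means of at most 7.87 normalized counts.

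Within 1h of OHT *Mt2*, *Slc30a1* and *Mt1*, the members that MTF-1 is known to activate, rose in GCSF. This comparison was chosen after the values had been seen. *Mt2* had 909.4, 846.9 and 997.4 normalized counts at GCSF-OHT 1h against 339.2, 324.0 and 306.6 at GCSF 0h, with no overlap, a log2 fold change of 1.501 (SE 0.13, adjusted p = 3.62e-18). *Slc30a1* had 403.2, 411.0 and 447.8 against 216.2, 238.2 and 256.3, a change of 0.83 (SE 0.11, adjusted p = 1.72e-10), and *Mt1* had 4230.5, 4023 and 4091.5 against 2605, 2622 and 2728, a change of 0.63 (SE 0.11, adjusted p = 1.49e-06). These were 3 of 8 members called higher, where 4.01% of all genes were called higher and 2.03% lower. *Mtf1* itself had 884.7, 900.0 and 839.7 at 1h against 1183, 1302 and 1272, with no overlap, a difference of -0.52 (SE 0.05, adjusted p = 5.36e-16) that stayed inside the threshold on the fold change. *Slc39a10*, which MTF-1 is known to repress, differed by 0.05 (SE 0.14, adjusted p = 0.874 by limma) and was not called. Of the wider list only *Slc39a14* was called, with 1.103 (SE 0.10, adjusted p = 1.42e-16).

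In IL3 1 member passed the test at 1h. *Mt2* had 2888, 2848 and 2843 at 1h against 1677, 1673 and 1709 in undifferentiated cells, a change of 0.76 (SE 0.13, adjusted p = 2.67e-06), the 1 member called higher where 2.81% of all genes were called higher and 1.61% lower. *Slc39a10* differed by 0.03 (SE 0.14, adjusted p = 0.946 by limma) and was not called. *Slc30a1* differed by 0.31 (SE 0.11, adjusted p = 0.03) and was not called at 1h. Its highest mean of the course came at 2h, with 649.9, 667.9 and 665.6 against 433.1, 483.8 and 492.8 in undifferentiated cells, and the groups did not overlap. Whether the rise differs between the conditions was not tested. Of the 36 wider-list genes 0 were called by limma, edgeR or DESeq2 (14 had an unadjusted p under 0.05).

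**Figure D1:**
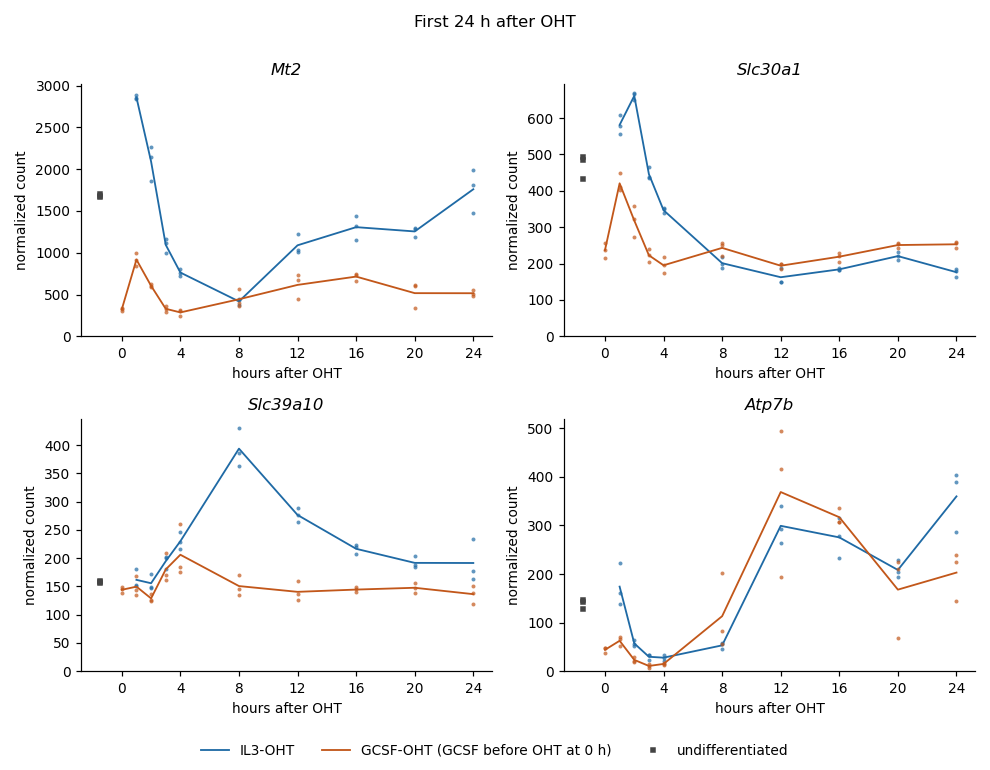
Normalized counts (vertical axis, from 0) of *Mt2*, *Slc30a1*, *Slc39a10* and *Atp7b* against hours after OHT, from the start to 24 h. Points are libraries, lines join the means, blue is IL3-OHT, orange is GCSF-OHT with GCSF 0h at 0, and grey squares are undifferentiated cells. The highest means of *Mt2* and *Slc30a1* lie at 1h or 2h in both conditions, *Slc39a10* peaks at 8h in IL3 (mean 393.6), and *Atp7b* has its lowest mean at 4h in IL3 (27.9) and at 3h in GCSF (10.9).

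By 4h the early rise had passed, and *Atp7b* had fallen in both conditions. In IL3 it went from 146.5, 128.9 and 143.0 in undifferentiated cells to 55.90, 51.71 and 64.29 in the 2h libraries, then 23.59, 33.11 and 32.68 (3h) and 22.03, 28.16 and 33.63 (4h), the last a log2 fold change of -2.297 (SE 0.24, adjusted p = 1.85e-15). In GCSF it went from 47.13, 47.81 and 37.28 at GCSF 0h to 7.49, 15.06 and 10.12 at 3h, the lowest mean of the course, and 17.76, 14.76 and 12.56 at 4h, the last a change of -1.496 (SE 0.24, adjusted p = 1.16e-07). At 1h, by contrast, all 3 GCSF libraries (51.55, 70.75 and 65.73) were above those of GCSF 0h, and the difference of 0.49 (adjusted p = 0.122, limma) was not called.

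At IL3-OHT 4h *Mt2* had 808.3, 717.1 and 763.6, below all undifferentiated libraries, a change of -1.14 (SE 0.13, adjusted p = 5.26e-13). With *Atp7b* it made 2 of 8 members called lower, where 13.5% of all genes were called lower and 8.63% higher. *Slc39a10* stood at 215.7, 245.9 and 228.2 against 159.6, 158.5 and 156.0, a difference of 0.54 (SE 0.14, adjusted p = 0.00069) just inside the threshold, which it passed without replicate 1 (0.59). In GCSF *Atp7b* was the 1 member called at 4h, where 2.41% of all genes were called lower and 3.21% higher. *Atp7a* (0.53) and *Slc39a10* (0.49) lay just inside the threshold, and without replicate 1 they stood at 0.66 and 0.62 and were called, as *Atp7a* was without replicate 2 (0.59). Of the wider list 8 genes rose and 2 fell in IL3, led by *Steap3*, a ferric and cupric reductase gene (2.15), *Gpr39*, a zinc-sensing receptor gene (1.92), and *Sco2*, a copper chaperone gene of cytochrome c oxidase (1.85). In GCSF 2 rose and 1 fell: *Slc30a5*, a zinc transporter gene of the secretory pathway (0.94), *Steap3* (0.67) and *Gpr39* (-0.72).

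The descent in IL3 reached its floor at 8h for the metallothioneins. *Mt2* had 432.5, 378.0 and 441.7 and *Mt1* 3430.3, 2992 and 3635, the lowest means of either gene in that course. *Slc39a10*, the zinc importer gene, was at its highest there, with 430.6, 386.6 and 363.7, above every other library of the course. In GCSF the highest mean of *Slc39a10* came earlier and was lower, 174.8, 183.5 and 259.7 at 4h, with a single library far above the other two.

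Between IL3-OHT 8h and 12h, the step for which it was proposed, *Atp7b* went from 45.09, 55.68 and 59.03 to 339.6, 264.4 and 293.6, a difference of 2.47 on the log2 scale. This was the 7th largest rise of 17414 genes and the largest of the 10597 with a mean of at least 50 in either group. The genes on either side of it were *Gm49368*, also with 2.47, and *Lilra6*, with 2.46, at means of at most 22.4 normalized counts. Among the better expressed genes *Ptprc* (2.37) and *Mgarp* (2.36) came next. In the same step *Mt2* differed by 1.38, *Mt1* by 0.51, *Atp7a* by 0.40, *Slc31a1* by 0.29, *Mtf1* by -0.01, *Slc30a1* by -0.31 and *Slc39a10* by -0.51.

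The same step in GCSF, whose libraries took no part in that choice, was tested. *Atp7b* had 202.1, 82.74 and 55.05 at 8h and 494.8, 417.0 and 194.3 at 12h, a log2 fold change of 1.802 (SE 0.24, adjusted p = 1.47e-09). The groups overlapped, because 1 library of 8h was high and 1 of 12h was low. The same GCSF-OHT 12h library was also the lowest of its group for *Slc31a1*, *Atp7a*, *Mt1* and *Mt2*. *Mt1* went from 3028, 2474 and 2053 to 4799, 4728 and 3361, a change of 0.77 (SE 0.11, adjusted p = 2.5e-08). These were 2 of 8 members called higher, where 2.25% of all genes were called higher and 0.425% lower. *Mt2* differed by 0.47 and, of the alternatives run, was called only without replicate 3 (0.62). Of the 36 wider-list genes 0 were called by limma, edgeR or DESeq2 (14 had an unadjusted p under 0.05).

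**Figure D2:**
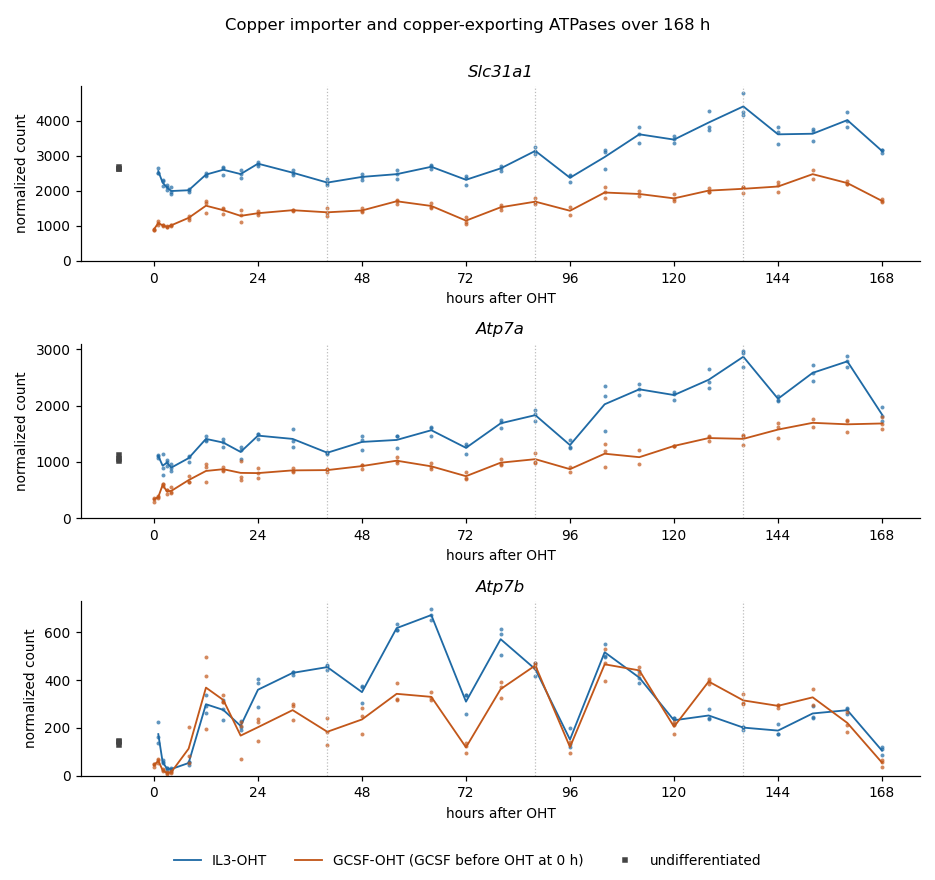
Normalized counts (vertical axes, from 0) of *Slc31a1*, *Atp7a* and *Atp7b* against hours after OHT, to 168 h. Points are libraries, lines join the means, blue is IL3-OHT, orange is GCSF-OHT with GCSF 0h at 0, grey squares are undifferentiated cells, and dotted lines mark the replacement of medium. *Slc31a1* and *Atp7a* climb late, to 4407 and 2866 at IL3-OHT 136h, and *Atp7b* swings between high and low time points in both conditions.

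Around that step, the time points of 16h to 24h were set against those of 1h to 4h. In IL3 *Atp7b* had 193.4 to 403.1 (median 279.1) normalized counts in the 9 later libraries and 22.03 to 223.4 (median 42.67) in the 12 earlier ones, a log2 fold change of 2.33 (SE 0.13, adjusted p = 2.04e-34). The groups overlapped through a single library of 1h, where *Atp7b* had not yet fallen. In GCSF it had 68.9 to 336.9 (median 225.3) against 12 libraries at 7.49 to 70.75 (median 17.99), a change of 3.21 (SE 0.13, adjusted p = 8.08e-46). The GCSF groups also overlapped, through 1 library of 20h at 68.89, beside 210.1 and 224.6 at that time, and 1 of 1h at 70.75. Since the IL3 values flank the step that chose *Atp7b*, they are not independent of it. *Slc30a1* went the other way in IL3, from 338.0 to 667.9 at 1h to 4h to 162.3 to 230.6 at 16h to 24h, a change of -1.35 (SE 0.06, adjusted p = 8.09e-44), and the groups did not overlap. In GCSF *Slc30a1* differed by -0.196 and was not called, while *Atp7a* changed by 0.78 (SE 0.06, adjusted p = 1.77e-24). In IL3 1 member was called higher and 1 lower, where 12.8% and 19.3% of all genes were, and in GCSF 2 were called higher, where 7.88% of all genes were called higher and 5.42% lower. Of the 36 wider-list genes tested, 12 were called lower and 2 higher in IL3, and 7 lower and 1 higher in GCSF. *Slc39a4*, a zinc importer gene, changed by -1.19 in IL3 and -1.401 in GCSF, *Gpr39* by -1.18 in IL3 and *Slc39a14* by -0.79 in GCSF. *Tmem163* was called in both at means of at most 2.88 normalized counts.

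*Slc31a1* reached 4258.5, 4789 and 4172 at IL3-OHT 136h and *Atp7a* 2967, 2939 and 2693, the highest means of both genes. Their highest means in GCSF came at 152h, 2348 and 2602 and 1624 and 1764 in the 2 libraries of that group. Over all time points of a condition from 1h on, the log2 means of these genes had Pearson's r of 0.962 in IL3 (25 time points) and 0.931 in GCSF (27 time points), a description across points that share their libraries between the genes. Late in GCSF they parted, with *Slc31a1* at a mean of 2220.4 at 160h and 1711.5 at 168h and *Atp7a* at 1668 and 1683. *Atp7b* had r of 0.471 with *Atp7a* in IL3 and 0.636 in GCSF. Its highest mean in IL3 came at 64h, with 670.6, 696.7 and 649.6. In GCSF the means of 104h, with 471.0, 531.1 and 396.5, and 88h, with 472.7, 449.0 and 462.7, were the highest and overlapped. Replicate 3 of GCSF-OHT 104h, the lowest of these, stood apart from the other two libraries of its group over all genes (chi-square per gene 50.6 and 73.2, against a median of 5.99 over 162 replicate pairs). At 168h it had 85.51, 110.7 and 118.8 in IL3 and 66.90, 58.68 and 38.50 in GCSF, below all undifferentiated libraries in both.

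*Mt1* and *Mt2* had r of 0.889 in IL3 and 0.768 in GCSF. In IL3 both peaked at 64h, *Mt1* with 14019, 13394 and 12947 and *Mt2* with 4174, 4156.5 and 3736, and in GCSF both peaked at 88h, with means of 6526 and 1135. *Slc39a10* had an r with *Mt2* of -0.856 in IL3 and -0.801 in GCSF. *Slc30a1*, which rose with *Mt2* in the first hour in GCSF, had r of -0.155 in IL3 and -0.195 in GCSF with it over the whole course. *Mtf1* varied least of the members within a condition, by 1.31-fold between its lowest and highest mean in IL3 and 1.93-fold in GCSF, where *Atp7b* varied by 24.1-fold and 42.8-fold.

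**Figure D3:**
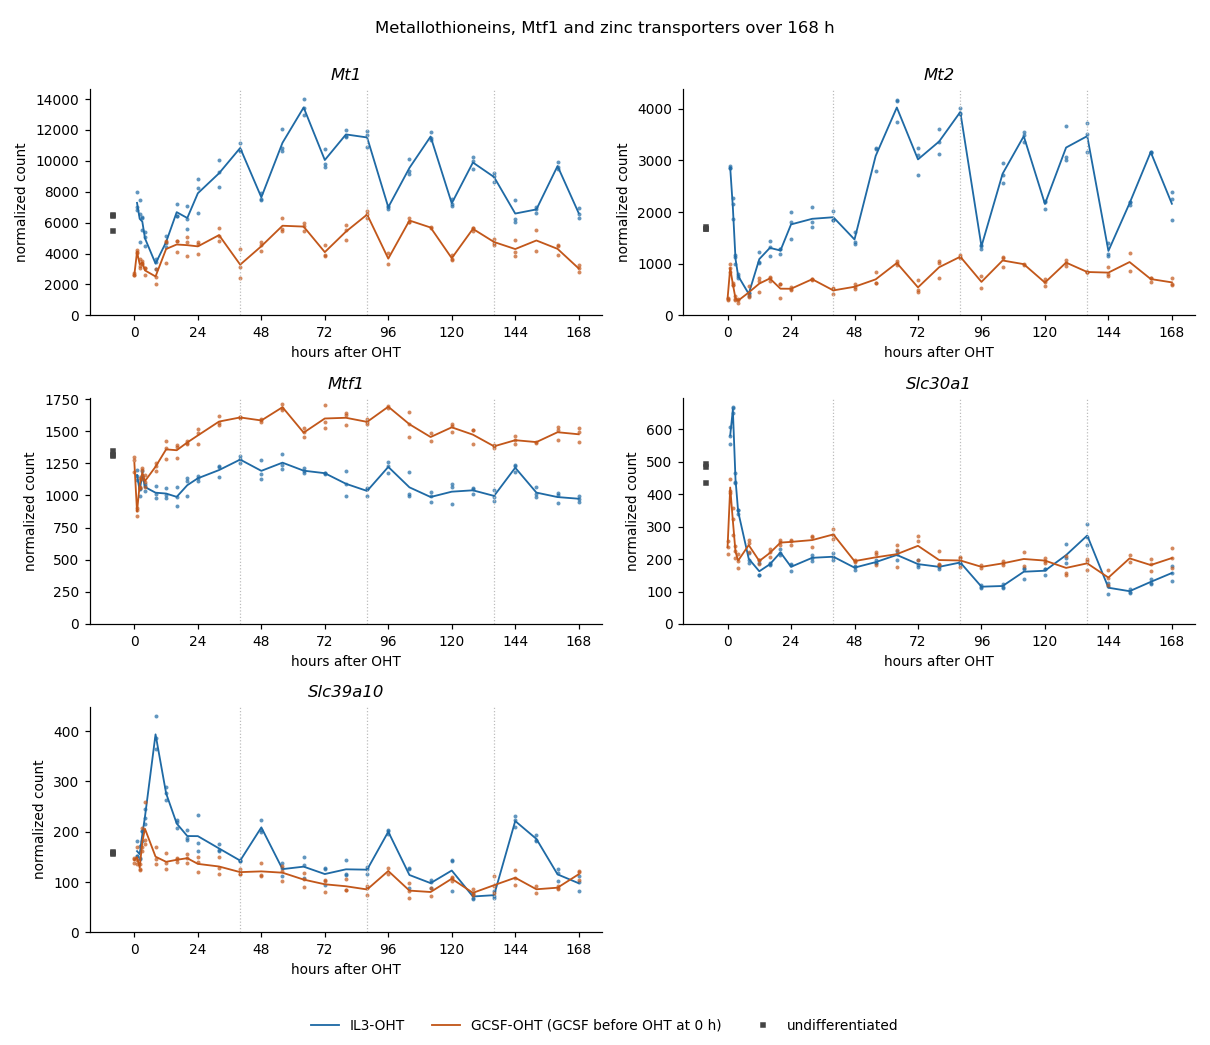
Normalized counts (vertical axes, from 0) of *Mt1*, *Mt2*, *Mtf1*, *Slc30a1* and *Slc39a10* against hours after OHT, to 168 h, with the symbols of the plot of the copper genes. *Mt1* and *Mt2* peak at 64h in IL3 (means 13453 and 4022), *Mtf1* lies higher in GCSF from 8h on, and *Slc39a10* stands out at 8h, 48h, 96h and 144h in IL3.

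The last time points, 152h to 168h, were set against 16h to 24h. All cells of the later window were detached with trypsin and those of the earlier one were not, so the parts of time and of detachment cannot be told apart. *Atp7a* had 1729 to 2875 normalized counts in IL3 against 1054 to 1496, without overlap, a log2 fold change of 0.84 (SE 0.06, adjusted p = 7.33e-25), and in GCSF a change of 1.03 (SE 0.06, adjusted p = 5.15e-30). *Slc31a1* was called in GCSF, with 0.63 (SE 0.04, adjusted p = 1.09e-30), and differed by 0.45 in IL3. *Mt2* was called in IL3, with 0.79 (SE 0.08, adjusted p = 4.96e-17). *Slc30a1* (-0.599) and *Slc39a10* (-0.63) fell in IL3, each close to the threshold: without replicate 2 *Slc30a1* was at -0.51, and without replicate 1 *Slc39a10* was at -0.56, and these were then not called. In IL3 2 members were called higher and 2 lower, where 11.2% and 11.5% of all genes were. In GCSF 2 were called higher, where 7.23% of all genes were called higher and 11.3% lower. The wider list had 2 genes higher and 7 lower in IL3, and 2 higher and 8 lower in GCSF. *Cp*, the gene of the copper ferroxidase ceruloplasmin, changed by -1.27 (SE 0.05, adjusted p = 1.69e-43) in IL3 and -2.09 (SE 0.06, adjusted p = 2.27e-62) in GCSF, *Slc30a4*, a zinc transporter gene at means of at most 25.7 normalized counts, by -1.37 and -2.21, and *Steap3* by -1.03 in IL3. *Sod3*, an extracellular copper and zinc superoxide dismutase gene, was called lower in GCSF at means of at most 7.57.

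Over the whole interval from undifferentiated cells to IL3-OHT 168h, *Atp7a* rose from 1130.5, 1058 and 1011.5 to 1729, 1980 and 1816, by 0.79 (SE 0.11, adjusted p = 1.31e-10) on the log2 scale. Only the cells of 168h were detached with trypsin, and the part of this was not tested. *Slc30a1* fell from 433.1, 483.8 and 492.8 to 179.3, 133.6 and 158.4, a change of -1.58 (SE 0.11, adjusted p = 1.15e-26), and *Slc39a10* changed by -0.698 (SE 0.14, adjusted p = 9.48e-06), or by -0.57 without replicate 1, inside the threshold. That is 1 member called higher and 2 lower, where 10.2% and 15.2% of all genes were. The other 5 members, *Mt1*, *Mt2* and *Atp7b* among them, differed by between -0.44 and 0.35 on the log2 scale and were not called. At the late end the comparison rests on 168h alone. From 160h to 168h the mean of *Atp7a* went from 2784.2 to 1841.8 and that of *Slc31a1* from 4016.0 to 3135.9. That of *Mt1* went from 9662.1 to 6614.8 and that of *Mt2* from 3159.7 to 2159.8. *Atp7b* had 283.7, 257.8 and 281.1 at 160h and 85.51, 110.7 and 118.8 at 168h. All 160h libraries of *Slc31a1*, *Mt1*, *Mt2* and *Atp7b* lay above all undifferentiated libraries, and *Mtf1* lay below them at both times. In the wider list 2 genes rose and 7 fell, with a median of -0.24 against -0.03 over all genes. *Slc30a4* went from a mean of 40.5 to 6.23 normalized counts (-2.501), *Sod3* from 10.9 to 2.47, and *Tmem163*, at a mean of 3.90 in undifferentiated cells, had 0 reads in the 3 libraries of 168h.

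**Figure D4:**
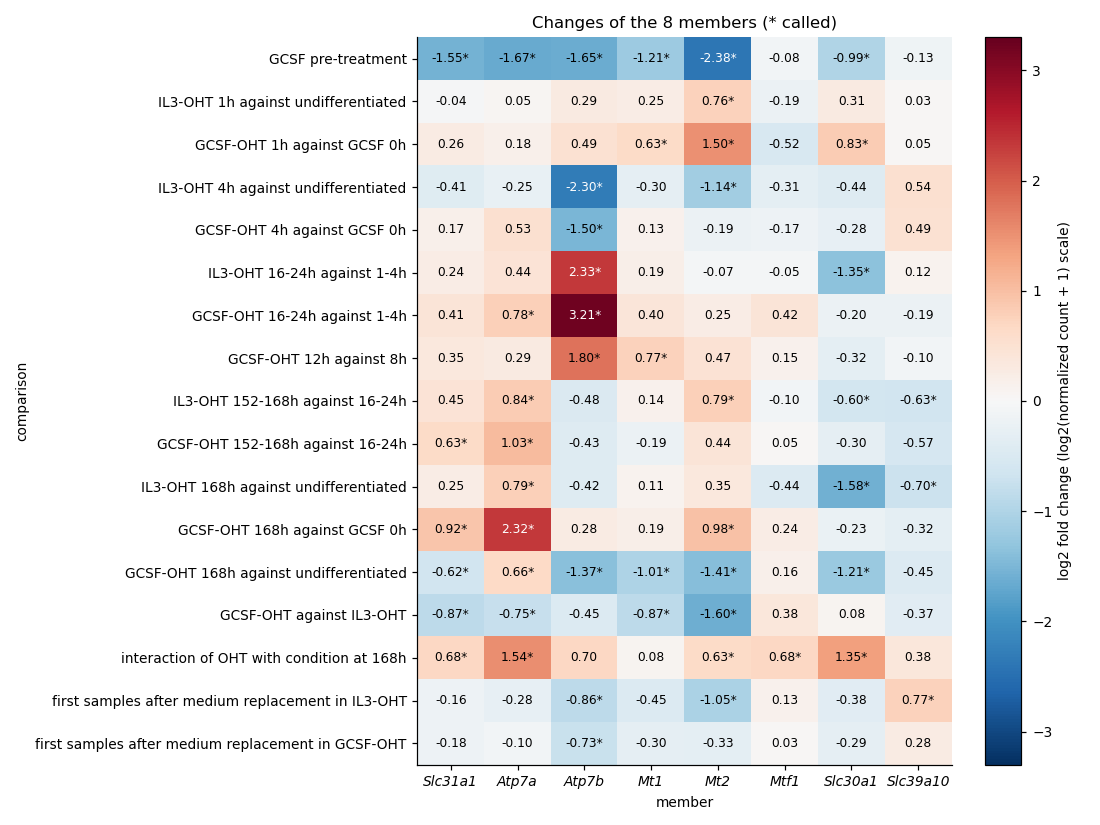
Log2 fold change of each member (columns) in each tested comparison (rows), on the log2(normalized count + 1) scale, with the value printed in each cell, red for higher, blue for lower and an asterisk for called. *Atp7b* has the largest rise shown (3.21, GCSF-OHT 16-24h against 1-4h) and *Mt2* the largest fall (-2.38, GCSF pre-treatment).

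In GCSF the end point was set against both starts. Cells of the end point were detached with trypsin and those of the starts were not, and the part of this was not tested. From GCSF 0h to GCSF-OHT 168h *Atp7a* rose from 367.8, 343.5 and 298.2 to 1674, 1789 and 1585, by 2.32 (SE 0.11, adjusted p = 8.6e-41), *Slc31a1* from 892.7, 891.6 and 919.9 to 1758, 1698 and 1679, by 0.92 (SE 0.06, adjusted p = 2.66e-26), and *Mt2* from 339.2, 324.0 and 306.6 to 717.2, 611.6 and 587.0, by 0.98 (SE 0.13, adjusted p = 2.41e-10). These were 3 of 8 members called higher, where 12.1% of all genes were called higher and 12.6% lower. Against undifferentiated cells, *Atp7a* was the 1 member called higher (0.66), and *Slc31a1* (-0.62), *Atp7b* (-1.37), *Mt1* (-1.01), *Mt2* (-1.41) and *Slc30a1* (-1.21) were called lower, where 15.5% and 23.6% of all genes were called higher and lower. Since GCSF-OHT 168h enters both comparisons, they are not independent. Both rest on this 1 time point. From 160h to 168h the mean of *Atp7b* went from 220.9 to 54.7 and that of *Slc31a1* from 2220.4 to 1711.5. *Atp7a* had 1668 and 1683. The wider list had 2 genes higher and 8 lower against GCSF 0h, and 3 higher and 14 lower against undifferentiated cells. *Cp* changed by -2.78 and *Slc30a4* by -2.99 from GCSF 0h, and *Slc30a4* by -2.803 from undifferentiated cells. *Sod3* had no more than 1 read in any library of GCSF-OHT 168h, from means of 12.5 at GCSF 0h and 10.9 in undifferentiated cells, and *Steap4* went from a mean of 1.52 in undifferentiated cells to 14.9.

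The change from the start of OHT to 168h differed between the conditions for 5 members. By limma's interaction term, GCSF minus IL3, it was larger in GCSF for *Atp7a*, 1.54 (SE 0.15, adjusted p = 1.51e-16), and *Atp7a* ended at 1683 ± 102.5 (SD, n = 3) in GCSF and 1842 ± 127.3 (SD, n = 3) in IL3, where the libraries overlapped. For *Slc30a1* the term was 1.35 (SE 0.15, adjusted p = 1.39e-13), with a fall in IL3 and a difference of -0.23 in GCSF that was not called. *Slc31a1* (0.68), *Mtf1* (0.68) and *Mt2* (0.63) were also called, *Mt2* not without replicate 1 (0.47, adjusted p = 0.103 by limma). For *Mtf1* neither change alone passed the threshold, 0.24 in GCSF and -0.44 in IL3. All 5 were called higher, where 14.5% of all genes were called higher and 11.3% lower. The term equals the difference between the conditions at 168h less the GCSF pre-treatment change given above. These calls are therefore not independent of that change. For *Atp7a* the 168h difference was -0.13 and the pre-treatment change -1.67. At the late end the term rests on 168h alone. In the wider list 2 genes were called higher and 6 lower, with *Cp* at -1.33, *Gpr39* at -1.15 and *Steap2*, a metalloreductase gene, called at an adjusted p of 0.0496 (limma).

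Over the 25 time points that both conditions share without IL3-OHT 96h and 144h, 4 members were lower in GCSF-OHT. *Mt2* had 240.2 to 1209 normalized counts (median 681.6) in 73 GCSF libraries and 378.0 to 4174 (median 2194) in 75 IL3 libraries, a log2 fold change of -1.603 (SE 0.03, adjusted p = 8.97e-86). *Slc31a1* changed by -0.87 (SE 0.01, adjusted p = 8.35e-92), *Mt1* by -0.87 (SE 0.02, adjusted p = 4.01e-66) and *Atp7a* by -0.75 (SE 0.02, adjusted p = 6.65e-62). These were 4 of 8 members called lower, where 15.1% of all genes were called lower and 9.34% higher. All 4 were already called lower at GCSF 0h, before OHT: *Mt2* by -2.38, *Slc31a1* by -1.55, *Mt1* by -1.21 and *Atp7a* by -1.67. How much of the difference over the course was carried over from that change was not tested. The GCSF libraries of *Slc31a1* all lay below the IL3 libraries at 25 of 25 time points, those of *Mt2* and *Atp7a* at 24 and those of *Mt1* at 23, and among all genes tested 6.78% did so at 23 time points or more. *Mt2* overlapped at 8h alone and *Atp7a* at 168h alone. *Mtf1* was higher in GCSF without overlap at 21 time points, from 8h on, where 11.3% of all genes were higher at 20 time points or more, and lower at 1h, and its difference over the course, 0.38 (SE 0.01, adjusted p = 2.86e-64), was inside the threshold. For *Slc30a1* the log2 difference, GCSF minus IL3, ran from -1.06 at 2h to 0.995 at 152h, and the mean difference was 0.08. For *Atp7b* it ran from -1.44 at 1h to 0.87 at 8h, where the libraries overlapped, with a mean difference of -0.45 that was not called. In the wider list 2 genes were called higher and 6 lower. The largest change was that of *Steap4*, 2.43, at no more than 21.4 normalized counts in any library. *Slc39a14*, with -1.900, and the zinc importer gene *Slc39a2*, with -1.15, came next. Without 120h, whose libraries carry another name prefix, the number called stayed at 4. The sums of neutrophil markers and of monocyte and macrophage markers, which differ between the conditions at 168h, are given above, and their part was not tested.

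The first samples after each replacement of medium, 48h, 96h and 144h, were set against the time points before and after them. In IL3, with 96h and 144h included, *Slc39a10* had 196.1 to 231.7 in 9 libraries against 67.7 to 193.4 in 18, with no overlap, a log2 fold change of 0.77 (SE 0.07, adjusted p = 7.12e-19). *Mt2* changed by -1.05 (SE 0.07, adjusted p = 1.38e-29) and *Atp7b* by -0.86 (SE 0.12, adjusted p = 2.69e-10). So 1 member was called higher and 2 lower, where 6.61% and 4.47% of 17439 genes were. With 48h alone, which rests on no excluded library, the same 3 members were called, where 279 of all genes were called against 1932 with the 3 time points together: *Slc39a10* had 203.8, 199.9 and 222.9 at 48h, a difference of 0.64 from 40h and 56h, *Mt2* 1422, 1607 and 1378.5, a difference of -0.72, and *Atp7b* 304.8, 374.2 and 370.4, a difference of -0.60. With 144h alone *Atp7b* stood at -0.28 and was not called. In GCSF *Atp7b* alone was called, with -0.73 (SE 0.13, adjusted p = 1.47e-06), where 1.19% of all genes were called lower and 0.596% higher. This rested on 96h, where its 2 libraries had 142.7 and 97.11 and the difference was -1.96, while 48h gave -0.10 and 144h -0.13, neither called. *Sco2* (1.02) and *Steap3* (0.72) were the 2 wider-list genes called in IL3, both higher, and in GCSF 0 were called by limma, edgeR or DESeq2 (18 had an unadjusted p under 0.05).

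Dips of members were not limited to those time points. At 72h all *Atp7b* libraries lay below all libraries of 64h and 80h in both conditions: 256.6, 336.6 and 336.8 in IL3, against 670.6, 696.7 and 649.6 at 64h, and 122.6, 138.6 and 95.62 in GCSF, against 348.9, 315.4 and 325.6 at 64h. The distance from the mean of the neighbouring time points was -1.01 in IL3 and -1.55 in GCSF on the log2 scale, and 6.87% and 6.21% of all genes lay below both neighbours at that time. The part of the plate, a separate one for each time point, was not tested. At 120h *Atp7b* lay below both neighbours in GCSF by 1.03, where 11.3% of all genes lay below both, and *Mt1* and *Mt2* did so there and in IL3, where 6.34% of all genes did. The 6 libraries of 120h carry another prefix in their names than the rest, and its part in these dips was not tested. *Atp7b*, *Mt1* and *Mt2* each also lay below both neighbours at 96h in GCSF, where 11.6% of all genes did. The dips were not particular to these genes: *Slc31a1* and *Atp7a* lay below both neighbours at 72h in both conditions as well. Of 20 time points between 16h and 160h, *Atp7a* was below both at 5 in IL3 and *Atp7b*, *Mt1* and *Mt2* at 4 each, where between 2.17% (20h) and 17.9% (96h) of all genes were below both at the time points of *Atp7b*. *Slc39a10* was above both at 48h, 96h and 144h in IL3, where 7.76%, 18.1% and 11.5% of all genes were, and at 96h and 120h in GCSF, where 11.7% and 11.2% were.

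**Figure D5:**
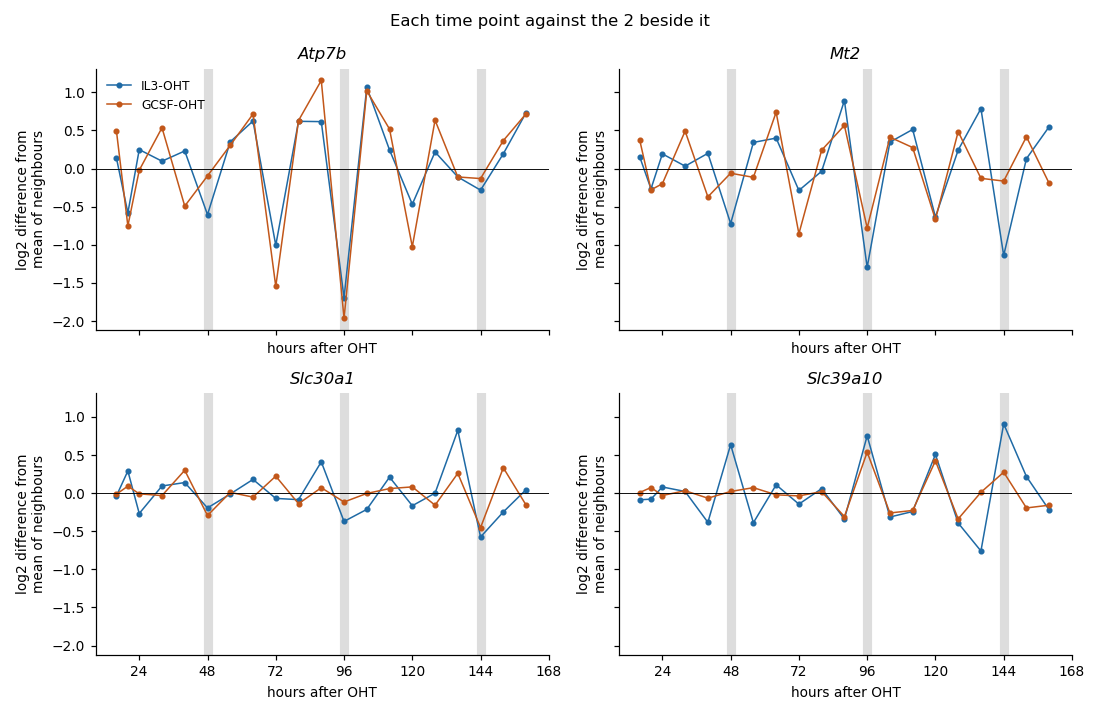
Difference of each time point from the mean of the time points beside it (vertical axis, log2 units) against hours after OHT, for *Atp7b*, *Mt2*, *Slc30a1* and *Slc39a10*. Blue is IL3-OHT, orange is GCSF-OHT, and grey bands mark the first samples after medium replacement. *Atp7b* dips at 72h and 96h in both conditions, to -1.96 at GCSF-OHT 96h, and *Slc39a10* rises at 48h, 96h and 144h in IL3.

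The genes most like each member were sought over the 54 group means of log2 values, among 11590 genes with a mean of at least 50 in some group. *Mt1* had *Mt2* as its nearest gene (Pearson's r 0.934), and *Mt2* had *Eaf1* (0.943), *Prdx6* (0.940) and *Mt1*. The nearest to *Atp7b* were *Mthfd1l* (0.946), *Prelid1* (0.944) and *Pgm1* (0.940), to *Atp7a* *Tec* (0.943), *Mtss1* (0.934) and *Kdm5b* (0.933), and to *Slc31a1* *Pvr* (0.966), *Plekhb2* (0.963) and *Gnb1* (0.950). For *Mt1* the next were *Fam162a* (0.925) and *Grin1* (0.923). *Slc39a10* was most like *Cyp20a1* (0.93), *Gcsh* (0.904) and *Cops7a* (0.890), *Slc30a1* like *Hccs* (0.895), *Arl14ep* (0.88) and *Serpinb1a* (0.845), and *Mtf1* like *Treml4* (0.899), *Zfp35* (0.886) and *Hunk* (0.875). These values describe the same 54 points, which share libraries, and carry no p.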

How the data were processed

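The samples are polyA RNA libraries from PUER cells, in 56 groups assigned by the sample labels. The deposited values are normalized counts: the authors aligned reads with Salmon to GRCm38 and divided counts by DESeq2 size factors (signal scale), versions not given in the sources used here. Whole reads were recovered from 100% of the nonzero values (relative tolerance 1e-06) for the count tests. Library totals ran from 14600246 to 33147945 reads, and intervals from counts cover counting error only. Genes with at least 5 normalized counts in 1 library or more entered limma 3.58.1 (R 4.3.3), with 1 mean per group and a trended prior, on log2(normalized count + 1). The fit held 159 libraries and 17414 genes. All libraries and 17439 genes entered for the medium comparisons, and Benjamini-Hochberg adjustment ran within each comparison. The 1h comparisons were added after seeing the data. Alternatives were pseudocounts of 0.5 and 5, no filter or a mean of at least 10, upper-quartile scaling, a replicate block, each replicate left out, the compared groups alone, edgeR 4.0.16 and DESeq2 1.42.0. The members and the wider list of 43 copper and zinc genes were chosen with earlier results of these data known. Wider-list genes were named as the 3 with the largest change among those called.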

Additional observations from a re-analysis of the deposited data

Results flagged for a closer look

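The change from before OHT to 168h differed between the conditions for 5 members by limma's interaction term (GCSF minus IL3, log2 scale, adjusted p under 0.05 over 17414 genes): *Atp7a* by 1.54, *Slc30a1* by 1.35, *Slc31a1* by 0.68, *Mtf1* by 0.68 and *Mt2* by 0.63. Each group had 3 libraries. The GCSF change starts from cells already held in GCSF for 48 h and the OHT concentration differs, so the parts of cytokine, pre-treatment and dose cannot be told apart. The term also contains the change of GCSF pre-treatment and is not independent of it.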

How the results depend on the processing

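Over the alternatives, 1662 of the members' log2 fold changes kept their direction and their side of the threshold, 9 passed it newly, 7 no longer passed it and 10 changed sign. The number of members called moved by more than 1.5 times in 2 comparisons. For GCSF-OHT 4h against GCSF 0h it was 1, and 1 to 3 when replicates were left out in turn. For medium replacement in GCSF it was 1, but 0 with 48h alone, 3 with 96h alone and 0 with 144h alone. The sign changed for *Slc39a10* without replicate 2 at IL3-OHT 1h (-0.0549, with 0.0778 as the highest value over the replicates), without replicate 3 at GCSF-OHT 1h (-0.0725, highest 0.1249) and without replicate 2 from GCSF-OHT 8h to 12h (0.07, lowest -0.2111), and for *Mt1* in the interaction without replicate 1 (-0.0593, highest 0.2392). With 48h alone it changed in IL3 for *Slc31a1* (0.0279), *Atp7a* (0.0885) and *Mtf1* (-0.0902) and in GCSF for *Mt1* (0.0547) and *Mtf1* (-0.0561), and with 144h alone in GCSF for *Atp7a* (0.0249). None of these 10 was called in either setting, and the cause was not tested.

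Samples of the same replicate number did not deviate together on average. The mean correlation of deviations from the group means was 5.94e-05 for the same number and 1.38e-08 for different numbers. Of 4134 same-number pairs 22.6% exceeded 0.1. The share among different-number pairs was not computed, so links between single groups were not tested. The replicate block left the number of members called as it was in all 17 comparisons, for example 6 at GCSF pre-treatment. Over all genes, the number called from GCSF-OHT 8h to 12h went from 465 to 252 without replicate 2. After medium replacement in IL3 it went from 1932 to 1287 at a pseudocount of 5, 279 with 48h alone and 3056 with 96h alone, and in GCSF from 311 to 136, 61 and 811. Depth limits *Atp7b* most, with 9 reads in its lowest library.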
